A study of Mus musculus with 24 samples.

Results

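The question here was which responses of mouse skeletal muscle to disuse are lost, kept, enlarged or reversed when the p50 subunit of NF-κB is missing. The measure was a difference between differences, the log2 change with hind limb unloading (HU minus weight bearing, WB) in wild type mice minus the same change in Nfkb1-/- mice. It was taken from the 16 arrays of wild type and Nfkb1-/- muscle among the 24 arrays of the series, 4 arrays in each of 4 groups. The groups were WB and HU wild type mice (B6129PF2/J) and WB and HU Nfkb1-/- mice (B6;129P2-Nfkb1tm1Bal/J). All were males, 6 weeks old, and all had 3 days to acclimate to their cages. The HU mice were suspended by the tail for 6 days, so that the hind limbs bore no weight, and gastrocnemius and plantaris muscles were then taken. The Nfkb1-/- mice carry the deletion in every cell of the body and throughout life. Their controls were a separate F2 hybrid stock with B6 and 129 background, so a difference between the genotypes may also be one between strain backgrounds, and these cannot be told apart. Each array held the muscle of 1 mouse.

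NF-κB transcription factors are dimers that bind κB sites in promoters and enhancers. Most are held in the cytoplasm by IκB proteins until kinases release them. p50, the processed product of *Nfkb1*, has no transactivation domain of its own. A p50 homodimer therefore tends to occupy κB sites without activating them, unless it carries the co-activator Bcl-3, and a p50:p65 dimer activates them. Loss of p50 can thus take away both activation and repression. In unloaded muscle, protein is lost as breakdown through the ubiquitin-proteasome system rises and protein synthesis falls.

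The array has no probe set listed for *Nfkb1*, so the deletion itself could not be checked. Of 20 markers of muscle fibres, 19 were tested and none changed with unloading in either genotype. Array medians lay between 11.6 and 11.9 intensity units. The ratio of 3′ to 5′ signal of the *Gapdh* control on the log2 scale was 0.15 to 0.21 in WB and 0.12 to 0.18 in HU wild type muscle, and 0.10 to 0.17 in WB and 0.18 to 0.21 in HU Nfkb1-/- muscle. It was thus higher in HU than in WB mice of the Nfkb1-/- genotype, and its part in the falls of that genotype was not tested. The spread of an array around its group mean (SD of log2 residuals) was 0.107 to 0.233, highest for HU wild type replicate 1 and next highest, at 0.202, for HU Nfkb1-/- replicate 4. A level measured in whole muscle cannot tell fewer cells of a type from less RNA per cell.

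Of 9722 probe sets with an intensity above 20 on at least 4 of the 16 arrays, 502 (5.16%) rose and 366 (3.76%) fell with unloading in wild type muscle at a Benjamini-Hochberg adjusted p under 0.05 (limma). In Nfkb1-/- muscle 962 (9.9%) rose and 1381 (14.2%) fell. The split of the wild type calls turned to 522 higher and 619 lower after another quantile normalization, and to 539 and 588 when they were centred on the medians of the tested probe sets. The responses of the genotypes had a Pearson correlation of 0.52 and a Spearman correlation of 0.47 over probe sets, which share arrays and are not independent. Both responses were called in the same direction for 410 probe sets, 172 higher and 238 lower. They were called in opposite directions for 6, those of *Prdx4*, *Tial1*, *Mrpl55*, *Pard3*, *Ywhae* and *Sdhd*. *Prdx4*, a peroxiredoxin of the endoplasmic reticulum, rose by 0.28 in wild type mice and fell by 0.25 without p50, and *Sdhd*, a membrane anchor of succinate dehydrogenase, rose by 0.38 and fell by 0.37 at 1 of its probe sets. The differences of *Prdx4*, *Pard3*, *Ywhae* and *Sdhd* had adjusted p of 0.051 to 0.055 and were not called.

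The difference between the responses was called for 27 probe sets, 0.278% of those tested. The wild type response was the more positive for 18 of them (0.185%) and the Nfkb1-/- response for 9 (0.0926%). This split was 48 and 35 after another quantile normalization, 37 and 9 after centring on array medians, and 31 and 24 after centring on the medians of the tested probe sets. At an unadjusted p under 0.05 the wild type response was the more positive for 1234 probe sets (12.7%) and the Nfkb1-/- response for 570 (5.86%). Of 330 probe sets called higher in wild type and not in Nfkb1-/- mice, 7 had the difference called and 172 had it at an unadjusted p under 0.05. For most probe sets called in 1 genotype alone, the difference itself was thus not called. In WB mice 90 probe sets (0.926%) differed between the genotypes and in HU mice 1498 (15.4%) did, of which 493 were higher and 1005 lower in Nfkb1-/- muscle.

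**Figure D1:**
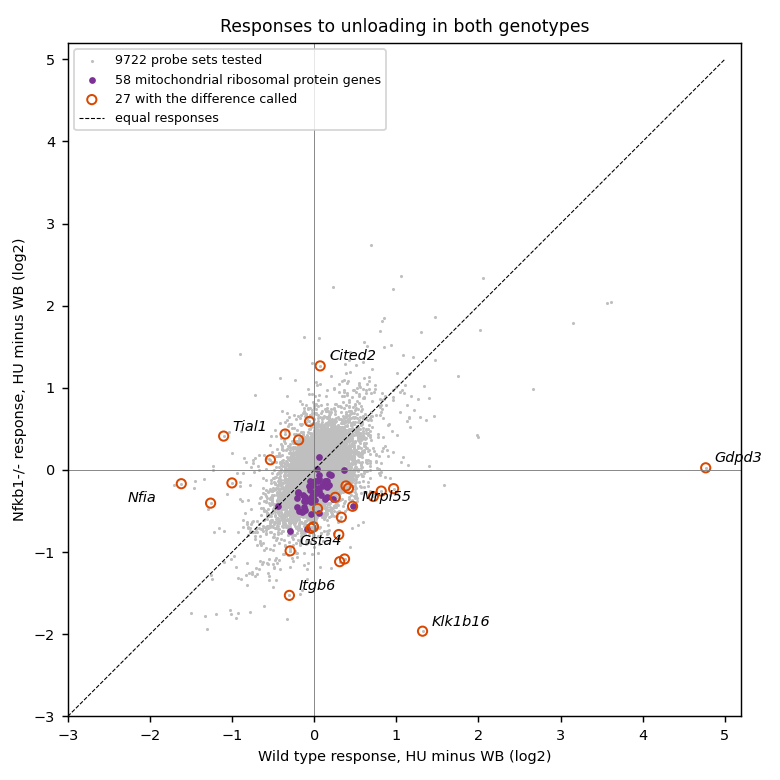
Log2 response to unloading in wild type muscle (horizontal axis) and in Nfkb1-/- muscle (vertical axis) for 9722 probe sets, grey, with the 58 mitochondrial ribosomal protein genes measured in purple and the 27 probe sets with the difference called ringed in orange. The dashed line marks equal responses, and 56 of the purple points lie below it.

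A response was called lost when the difference and the wild type response were called and the Nfkb1-/- response was not. It was called reversed when both responses were called with opposite signs, reduced when both were called with the same sign and wild type changed more, and enlarged when Nfkb1-/- changed more. It was called gained when the Nfkb1-/- response was called and that of wild type was not. The 27 probe sets held 9 lost, 2 reversed, 1 reduced, 15 gained and no enlarged responses. In 22 of them the genotypes differed in HU and not in WB mice, in 4 in WB and not in HU mice, and in 1 in both. Leaving out 1 array at a time, between 3 and 24 of the 27 calls remained. The fewest remained without WB Nfkb1-/- replicate 4, when the calls of *Tial1* and of 2 probe sets without a listed gene were left, while 5 remained without WB Nfkb1-/- replicate 1 and 8 without WB Nfkb1-/- replicate 2. A group mean lay under the floor of 20 for 10 of the 27 probe sets, where fold changes rest on low intensities.

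*Tial1*, which encodes an RNA-binding protein of stress granules that represses translation, had the difference with the smallest p. Its probe set read 26.7, 28.3, 24.7 and 19.98 in WB wild type muscle and 12.5, 11.6, 11.0 and 11.0 in HU wild type muscle. In Nfkb1-/- muscle it read 24.6, 25.1, 25.3 and 25.8 in WB mice and 34.5, 36.1, 34.4 and 29.6 in HU mice. The WB arrays of the genotypes overlapped, all 4 HU wild type arrays lay below them and all 4 HU Nfkb1-/- arrays above. The log2 response was −1.10 (SE 0.10, adjusted p = 1.8e-05) in wild type mice and 0.41 (SE 0.10, adjusted p = 0.0065) without p50, and the difference was −1.51 (SE 0.14, adjusted p = 5.6e-05). This call remained with each of the 16 arrays left out in turn. With intensities under 20 set to 20, the difference was −0.72 (adjusted p = 0.022). The probe set is of the kind whose probes match transcripts of more than 1 gene. None of the 3 other probe sets of *Tial1* showed a reversal. Their wild type responses were 0.55, 0.09 and 0.28, none past the threshold, their Nfkb1-/- responses 0.42, 0.41 and 0.47, and their differences 0.13, −0.32 and −0.19.

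*Mrpl55*, a protein of the large mitochondrial ribosomal subunit, was reversed the other way. It read 128, 97.2, 128 and 113 in WB and 148, 149, 175 and 171 in HU wild type muscle, and 79.3, 95.1, 93.2 and 88.9 in WB and 56.8, 69.1, 65.3 and 71.4 in HU Nfkb1-/- muscle. No array of HU Nfkb1-/- muscle reached any array of the other groups. The response was 0.47 (SE 0.10, adjusted p = 0.012) in wild type mice and −0.44 (SE 0.10, adjusted p = 0.0064) without p50, and the difference was 0.91 (SE 0.15, adjusted p = 0.019). The call was lost without WB Nfkb1-/- replicate 4 and remained in the other 15 fits that left out an array.

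The lost rises were those of *Gdpd3*, *Thyn1*, *Pts*, *Rab40b*, *Cox20* and *Srp14*. *Pts* encodes 6-pyruvoyltetrahydropterin synthase, which makes tetrahydrobiopterin, the cofactor of nitric oxide synthases and of aromatic amino acid hydroxylases. It read 19.8, 24.8, 25.3 and 22.8 in WB and 43.4, 34.0, 40.6 and 45.7 in HU wild type muscle, against 23.3, 19.7, 23.2 and 20.8 in WB and 17.2, 18.3, 15.4 and 22.3 in HU Nfkb1-/- muscle. The HU wild type arrays stood above all 12 others. The response was 0.82 (SE 0.12, adjusted p = 0.0018) in wild type mice and −0.26 (SE 0.12, adjusted p = 0.13) without p50, and the difference was 1.07 (SE 0.17, adjusted p = 0.019). *Rab40b*, a Rab GTPase that carries a SOCS box and recruits a ubiquitin ligase, read 63.3, 69.3, 69.4 and 56.0 in WB and 136, 92.2, 106 and 95.2 in HU wild type muscle. In Nfkb1-/- muscle it read 63.8, 57.7, 59.7 and 66.2 in WB and 48.3, 56.1, 42.6 and 51.6 in HU mice. All HU wild type arrays were above, and all HU Nfkb1-/- arrays below, the WB arrays of their own genotype. Its difference was 1.04 (SE 0.17, adjusted p = 0.019), from a wild type response of 0.72 (SE 0.12) and an Nfkb1-/- response of −0.32 (SE 0.12, adjusted p = 0.057). The differences of *Pts* and *Rab40b* were called in 14 of the 16 fits without 1 array, the exceptions being WB Nfkb1-/- replicates 1 and 4.

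*Gdpd3*, which encodes a lysophospholipase D, read 5.75, 6.19, 5.45 and 92.4 in WB and 262, 204, 386 and 478 in HU wild type muscle, and stayed between 5.39 and 6.74 on all 8 Nfkb1-/- arrays. The gene was near the background of the array in every sample but the HU wild type ones and WB wild type replicate 4. Its difference of 4.74 (SE 0.90, adjusted p = 0.040) was called in only 3 of the 16 fits without 1 array. The probe set passed the filter through the HU wild type group and 1 other array, so the size of the difference rests on values under the floor. With intensities under 20 set to 20 it was 3.43 (adjusted p = 0.014). *Cox20*, an assembly factor of cytochrome c oxidase, read 121 to 137 in WB and 151 to 187 in HU wild type muscle, and 145 to 156 in WB and 112 to 142 in HU Nfkb1-/- muscle. WB and HU arrays did not overlap within either genotype. All Nfkb1-/- arrays lay above the wild type ones in WB mice and below them in HU mice. The difference of *Cox20* was 0.64 (SE 0.12, adjusted p = 0.040). *Srp14*, a subunit of the signal recognition particle that targets nascent proteins to the endoplasmic reticulum, had a wild type rise of 0.39 (SE 0.08), an Nfkb1-/- value of −0.19 (SE 0.08, adjusted p = 0.097) and a difference of 0.58 (SE 0.12, adjusted p = 0.049). Its WB Nfkb1-/- arrays (447 to 531) also lay above the WB wild type ones (399 to 441). Its 3 other probe sets had differences of 0.41 to 0.50, each with an unadjusted p under 0.05. *Thyn1* read 10.1 to 14.0 in WB and 20.6 to 38.7 in HU wild type muscle, and 8.83 to 13.0 in Nfkb1-/- muscle. Its difference was 1.19 (SE 0.24, adjusted p = 0.048). Only the 4 HU wild type arrays were above the floor, and the probe set was tested through that group alone. With intensities under 20 set to 20 the difference was 0.32 (adjusted p = 0.41) and not called. A second probe set of *Thyn1* had a wild type response of 0.41 (adjusted p = 0.17). The calls of *Cox20*, *Srp14* and *Thyn1* remained in 4, 2 and 4 of the 16 fits without 1 array.

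The lost or reduced falls had another form, since Nfkb1-/- muscle was already low in WB mice. *Nfia*, a transcription factor of the nuclear factor I family, read 54.8, 23.4, 30.3 and 27.1 in WB wild type muscle and 9.05, 11.0, 11.3 and 10.5 in HU wild type muscle. In Nfkb1-/- muscle it read 11.5 to 13.7 in WB and 10.1 to 12.9 in HU mice. Only the WB wild type arrays were above the floor of 20, and the probe set was tested through that group alone. The response was −1.62 (SE 0.19, adjusted p = 2.3e-04) in wild type mice and −0.17 (SE 0.19, adjusted p = 0.54) without p50, and the WB genotypes differed by −1.36 (adjusted p = 8.3e-04). With intensities under 20 set to 20 the difference between the responses was −0.68 (adjusted p = 0.17) and not called, so the size and the loss of this fall rest on values under the floor. *Pgap2*, which remodels the lipid of glycosylphosphatidylinositol anchors, had 2 probe sets, both called. One read 56.9 to 70.5 in WB and 23.2 to 28.9 in HU wild type muscle, and 28.6 to 31.7 in WB and 20.01 to 27.4 in HU Nfkb1-/- muscle, a reduced fall whose difference was −0.86 (SE 0.15, adjusted p = 0.024). The other gave a lost fall, the difference being −0.84 (SE 0.16, adjusted p = 0.042). *Rab6a*, a GTPase of Golgi traffic, read 136 to 176 in WB wild type muscle and 107 to 114 in HU wild type muscle, with 101 to 115 in WB and 111 to 127 in HU Nfkb1-/- muscle. Its difference was −0.66 (SE 0.12, adjusted p = 0.028). A second probe set of *Rab6a* went the other way, with a difference of 0.29 at an unadjusted p of 0.010, so the probe sets of this gene did not move together. Without 1 array the calls of *Nfia* and *Rab6a* remained in 9 and 10 of 16 fits, and those of *Pgap2* in 14 for the reduced and 2 for the lost fall. *Rab6a* and *Pgap2* lie near each other on the same chromosome in the GRCm38.p6 assembly. Of the 22 called genes placed there, 6 (27.3%) lie on chromosome 7, which holds 6.87% of the tested genes, namely *Gdpd3*, *Klk1b16*, *Pgap2*, *Prss23*, *Rab6a* and *Tial1*. The part of the strain background in these values was not tested.

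**Figure D2:**
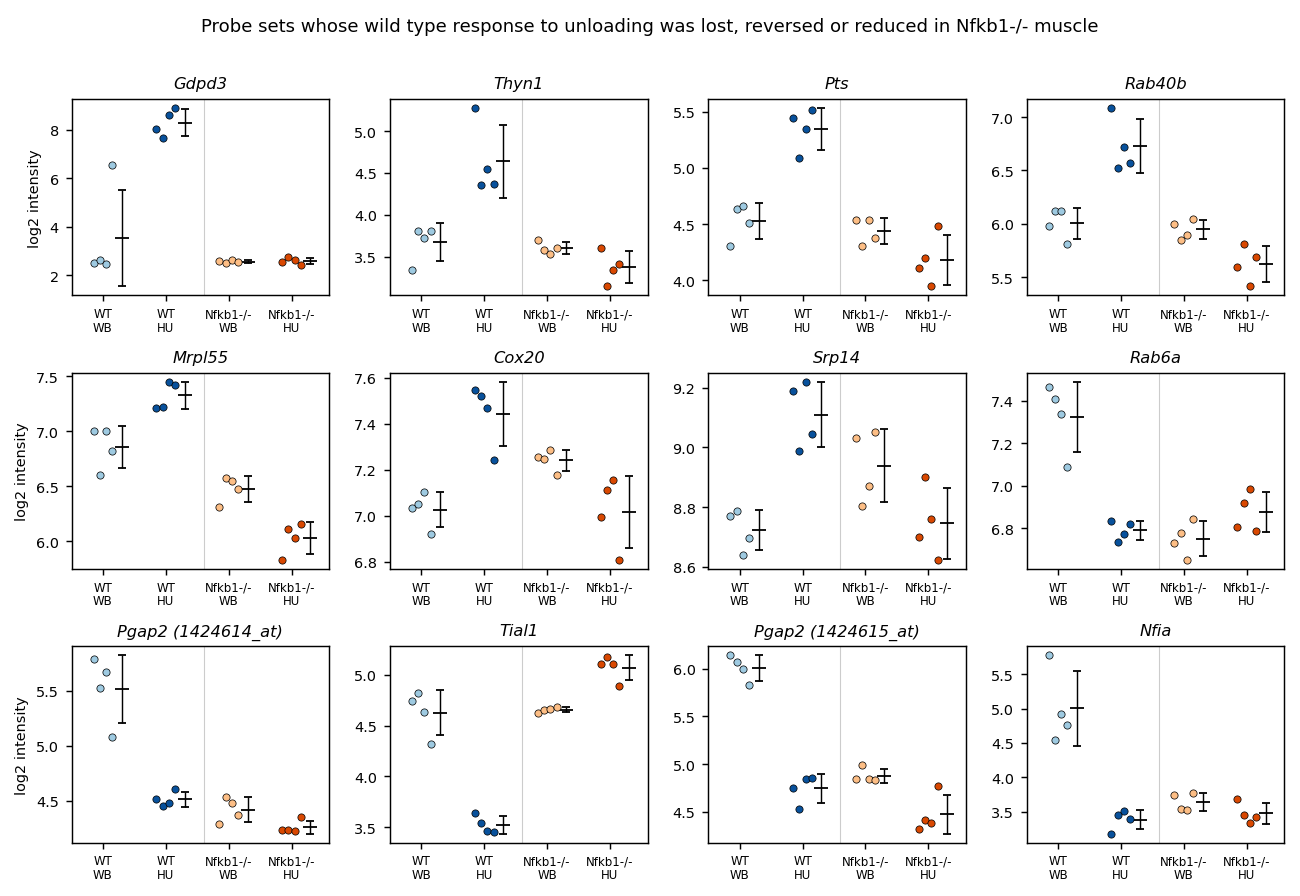
Log2 intensity of each array for the 12 probe sets with a listed gene whose wild type response was lost, reversed or reduced in Nfkb1-/- muscle, in the order of the wild type response. Points are the 4 arrays of each group and the bar beside them is their mean ± SD. Panels from *Gdpd3* to *Srp14* show the wild type rises, and *Rab6a*, *Pgap2* and *Nfia* show WB wild type arrays above all others.

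The bases before the start of *Mrpl55* and *Pts*, a reversed and a lost response, are shown, since κB sites are the sequences that p50 binds. Capitals in the *Pts* line mark the ETS core CCGGAAG. They are RefSeq promoters of GRCm38.p6, at chr11:59202236-59202485, plus strand, and chr9:50528657-50528906, minus strand, printed 5′ to 3′ on the strand of the gene.
Mrpl55: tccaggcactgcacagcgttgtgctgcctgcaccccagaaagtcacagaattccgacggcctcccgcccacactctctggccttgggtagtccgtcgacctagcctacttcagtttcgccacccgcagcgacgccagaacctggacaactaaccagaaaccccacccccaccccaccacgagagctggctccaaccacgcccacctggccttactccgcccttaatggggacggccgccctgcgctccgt
Pts: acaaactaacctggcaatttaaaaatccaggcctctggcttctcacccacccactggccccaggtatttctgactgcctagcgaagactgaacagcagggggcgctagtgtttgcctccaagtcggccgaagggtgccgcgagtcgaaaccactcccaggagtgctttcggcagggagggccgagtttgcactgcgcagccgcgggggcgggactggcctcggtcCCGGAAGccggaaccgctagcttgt
The κB consensus, searched on both strands from 250 bases before to 50 after the start, was in 0 of the 21 promoters found for the 23 genes with the difference called. It was in 6% of the promoters of 4897 tested genes and in 5.14% of those of 27025 genes. This says only that these letters are not in these windows. The ETS core was in 4 of the 21 (*Cox20*, *Il15ra*, *Pts* and *Slc7a6*), or 19%, against 22.2% of the tested genes and 9.93% of all genes.

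Of the 15 gained responses, 11 were falls, those of *Itgb6*, *Klk1b16*, *Gsta4*, *Glrx*, *Alg3*, *Prss23*, *Nme1* and *C1d* and of 3 probe sets without a listed gene. *Glrx* encodes glutaredoxin 1, which removes glutathione from protein thiols. It read 72.2, 71.1, 60.7 and 73.7 in WB and 63.8, 79.9, 63.5 and 63.8 in HU wild type muscle, and 67.6, 67.9, 62.6 and 64.9 in WB and 40.4, 40.4, 39.6 and 40.3 in HU Nfkb1-/- muscle. The 4 HU Nfkb1-/- arrays lay far below the other 12, close to each other. The response was −0.04 (SE 0.08, adjusted p = 0.81) in wild type mice and −0.71 (SE 0.08, adjusted p = 1.8e-04) without p50, and the difference was 0.67 (SE 0.12, adjusted p = 0.028). A second probe set had a difference of 0.60. *Gsta4*, a glutathione transferase for the lipid peroxidation product 4-hydroxynonenal, read 29.6 to 39.0 in WB and 25.0 to 30.1 in HU wild type muscle, and 36.9 to 40.9 in WB and 17.2 to 21.8 in HU Nfkb1-/- muscle. Its difference was 0.69 (SE 0.14, adjusted p = 0.048), called in 4 of the 16 fits without 1 array. The call of *Glrx* remained in 13, the exceptions being WB Nfkb1-/- replicates 1, 2 and 4.

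*Itgb6*, the β6 integrin chain that takes part in the activation of latent TGF-β, read 34.6, 26.6, 28.5 and 19.6 in WB and 19.8, 25.1, 20.1 and 22.3 in HU wild type muscle. In Nfkb1-/- muscle it read 30.2, 40.5, 33.5 and 36.7 in WB and 11.0, 12.1, 11.6 and 14.2 in HU mice. The wild type groups overlapped and the Nfkb1-/- groups stood wide apart. The response was −0.30 (SE 0.14, adjusted p = 0.20) in wild type mice and −1.53 (SE 0.14, adjusted p = 5.7e-05) without p50, and the difference was 1.23 (SE 0.20, adjusted p = 0.022). *Klk1b16*, a glandular kallikrein, read 2.91 to 16.0 in WB and 17.7 to 33.8 in HU wild type muscle, and 25.0 to 42.3 in WB and 5.83 to 13.8 in HU Nfkb1-/- muscle. Its response was 1.32 (SE 0.42, adjusted p = 0.059) in wild type mice and −1.96 (SE 0.42, adjusted p = 0.0036) without p50. The genotypes thus had opposite signs, of which 1 was called. Its difference of 3.28 (SE 0.59, adjusted p = 0.028) rests on low values and on a gene with many close copies, so which kallikrein it measures is uncertain. Only the 4 WB Nfkb1-/- arrays and 3 HU wild type arrays were above the floor. The probe set was thus tested only through the WB Nfkb1-/- group, where it was high. The genotypes already differed in WB mice, by 1.89 (adjusted p = 0.039). *Prss23*, a secreted serine protease, had a difference of 0.91 (SE 0.15, adjusted p = 0.021), from 74.0 to 86.5 in HU Nfkb1-/- muscle against 112 to 149 in HU wild type muscle. Its second probe set had a difference of 0.93. Without 1 array the calls of *Itgb6* and *Prss23* each remained in 14 of 16 fits and that of *Klk1b16* in 12, and all 3 were lost without WB Nfkb1-/- replicate 4. With intensities under 20 set to 20 the difference of *Itgb6* was 0.50 (adjusted p = 0.18) and not called, and that of *Klk1b16* was 1.09 (adjusted p = 0.038).

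*Alg3*, an endoplasmic reticulum mannosyltransferase of N-glycan assembly, *Nme1*, a nucleoside diphosphate kinase, and *C1d*, a cofactor of the RNA exosome, fell by 0.69, 0.47 and 0.33 on the log2 scale in Nfkb1-/- muscle. *Nme1* read 94.1 to 108 in WB and 70.3 to 73.2 in HU Nfkb1-/- muscle, against 77.9 to 94.2 over all wild type arrays. *C1d* read 159 to 196 in WB and 139 to 149 in HU Nfkb1-/- muscle. Their differences were 0.68 (SE 0.14), 0.51 (SE 0.10) and 0.59 (SE 0.11), with adjusted p between 0.040 and 0.048. The calls of *Alg3*, *Nme1* and *C1d* remained in 3, 2 and 6 of the 16 fits without 1 array. In wild type muscle the value of *C1d* was 0.26 (SE 0.08, adjusted p = 0.055), so the genotypes had opposite signs of which 1 was called.

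The gained rises were those of *Cited2*, *Slc7a6*, *Il15ra* and *Ctage5*. *Cited2*, which competes with HIF-1α for the co-activators CBP and p300, read 62.9, 83.2, 75.4 and 50.5 in WB and 81.4, 76.8, 64.2 and 60.7 in HU wild type muscle. In Nfkb1-/- muscle it read 38.8, 37.8, 50.7 and 50.8 in WB and 94.6, 116, 117 and 99.5 in HU mice. The WB Nfkb1-/- arrays lay below or close to the lowest wild type array, and the HU Nfkb1-/- arrays lay above the highest. The response was 0.07 (SE 0.15, adjusted p = 0.80) in wild type mice and 1.27 (SE 0.15, adjusted p = 2.1e-04) without p50, and the difference was −1.19 (SE 0.21, adjusted p = 0.028), with −0.76 at a second probe set. This call remained in 9 of the 16 fits without 1 array. *Slc7a6*, an exchanger of basic and neutral amino acids, read 18.2 to 22.3 in WB and 28.7 to 34.2 in HU Nfkb1-/- muscle and 19.1 to 23.9 on all wild type arrays. At its second probe set the wild type response was 0.54 (adjusted p = 0.071), the Nfkb1-/- response 0.93 (adjusted p = 0.0023) and the difference −0.39 at an unadjusted p of 0.15. *Il15ra*, the receptor chain that presents interleukin-15, read 13.9 to 19.6 in WB and 20.4 to 27.5 in HU Nfkb1-/- muscle, against 21.3 to 22.4 in WB and 15.1 to 18.7 in HU wild type muscle. The wild type value of −0.35 (SE 0.11, adjusted p = 0.053) did not pass the threshold, while the Nfkb1-/- rise was 0.44 (SE 0.11, adjusted p = 0.0093). *Ctage5*, a receptor for large cargo at endoplasmic reticulum exit sites, read 51.9 to 58.6 in HU wild type muscle and 65.4 to 83.6 in HU Nfkb1-/- muscle, with all WB arrays between 55.2 and 65.6. The differences of *Slc7a6*, *Il15ra* and *Ctage5* were −0.65 (SE 0.12), −0.79 (SE 0.15) and −0.55 (SE 0.11), and their calls remained in 5, 3 and 3 of the 16 fits without 1 array. The difference of *Il15ra* was −0.36 (adjusted p = 0.0997) and not called with intensities under 20 set to 20.

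**Figure D3:**
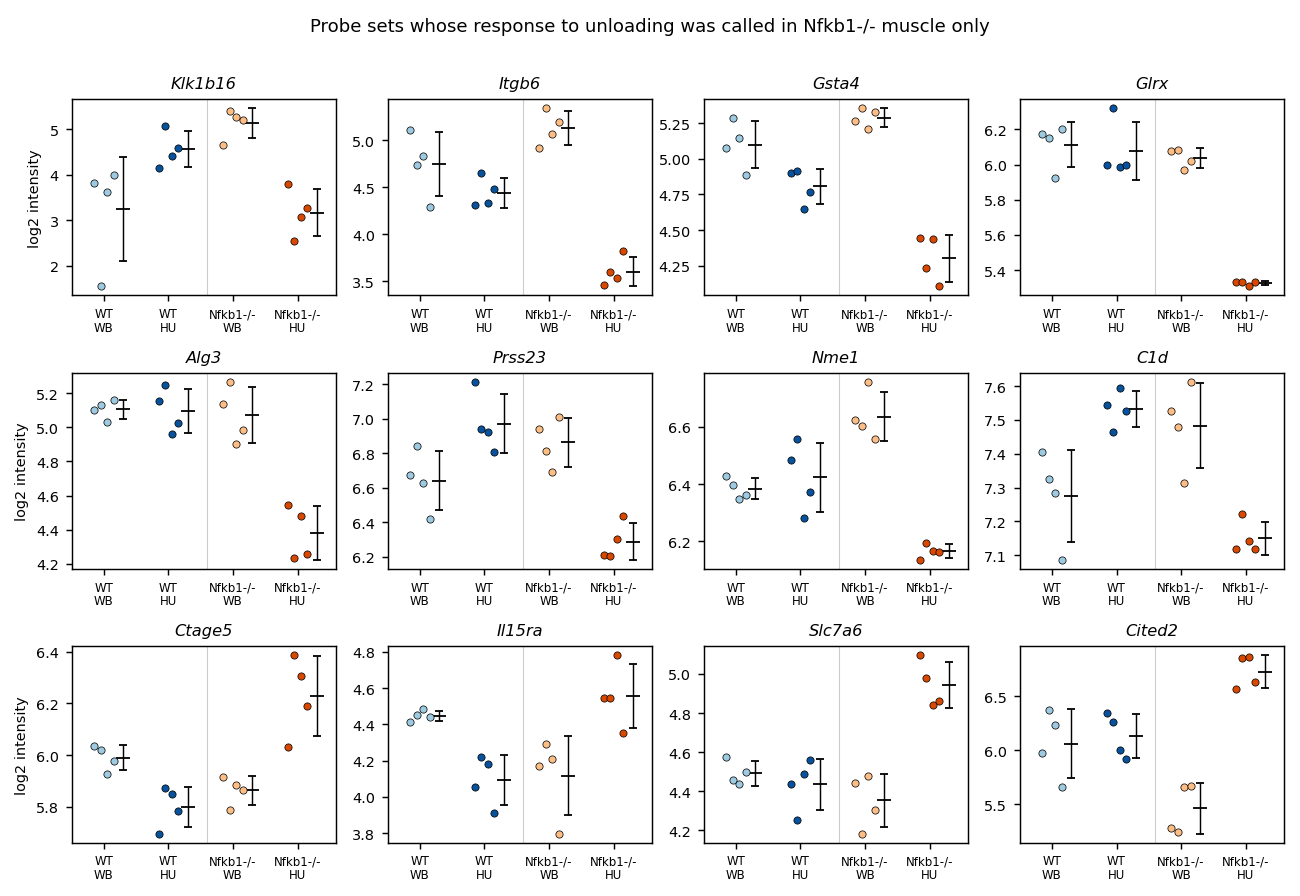
Log2 intensity of each array for the 12 probe sets with a listed gene whose response was called in Nfkb1-/- muscle and not in wild type muscle, in the order of the Nfkb1-/- response. Points are the 4 arrays of each group and the bar beside them is their mean ± SD. The first 8 panels fall and the last 4 rise between the WB and HU arrays of Nfkb1-/- muscle.

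Bcl3-/- mice (FVB; 129P2-Bcl3tm1Ver/J), measured on arrays of another scale, give another response to set beside these. Of the 27 probe sets, 2 were called in that response, *Glrx* at −0.31 (SE 0.09, adjusted p = 0.016) and *Slc7a6* at 0.49 (SE 0.09, adjusted p = 0.0014). Each had the sign of the Nfkb1-/- response, at −0.71 and 0.59. *Tial1*, *Mrpl55*, *Pts* and *Rab40b* had Bcl3-/- values of 0.21 (SE 0.10), 0.09 (SE 0.10), 0.26 (SE 0.12) and 0.27 (SE 0.15), none of which passed the threshold. The differences of both knockouts from wild type share the wild type arrays, and only each response's own value is given.

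A response was called kept when both genotypes changed in the same direction and the 95% interval of the difference lay within 50% of the wild type response on either side of 0. Only 4 probe sets met this, all of them falls, and with 4 arrays a group most intervals were wider. *Wls*, which carries Wnt proteins to the cell surface, read 22.0 to 25.0 in WB and 13.9 to 16.2 in HU wild type muscle, and 18.6 to 25.4 in WB and 13.8 to 16.1 in HU Nfkb1-/- muscle. The responses were −0.62 (SE 0.09) and −0.61 (SE 0.09), and the interval of their difference was −0.29 to 0.28. *5031439G07Rik* fell by 0.57 and by 0.55, with an interval of −0.27 to 0.23. The other 2 have no listed gene. Among the 410 probe sets called in the same direction in both genotypes, the median log2 response of the 172 rises was 0.49 in wild type mice and 0.47 without p50, and that of the 238 falls was −0.44 and −0.51. Only 1 of the 410, a probe set of *Pgap2*, had the difference called.

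Gene groups were described by counts and medians of 45 lists, each gene by the probe set with its highest mean. Over all 5972 genes tested the median response was 0.02 in wild type mice and −0.02 without p50, and the median difference 0.04. By gene, 4.72% rose and 4.07% fell in wild type muscle, and 10.2% rose and 14.4% fell in Nfkb1-/- muscle. The difference had an unadjusted p under 0.05 with wild type the more positive in 11.7% of genes and with Nfkb1-/- the more positive in 6.4%. These are the shares against which the counts of list members are to be read.

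**Figure D4:**
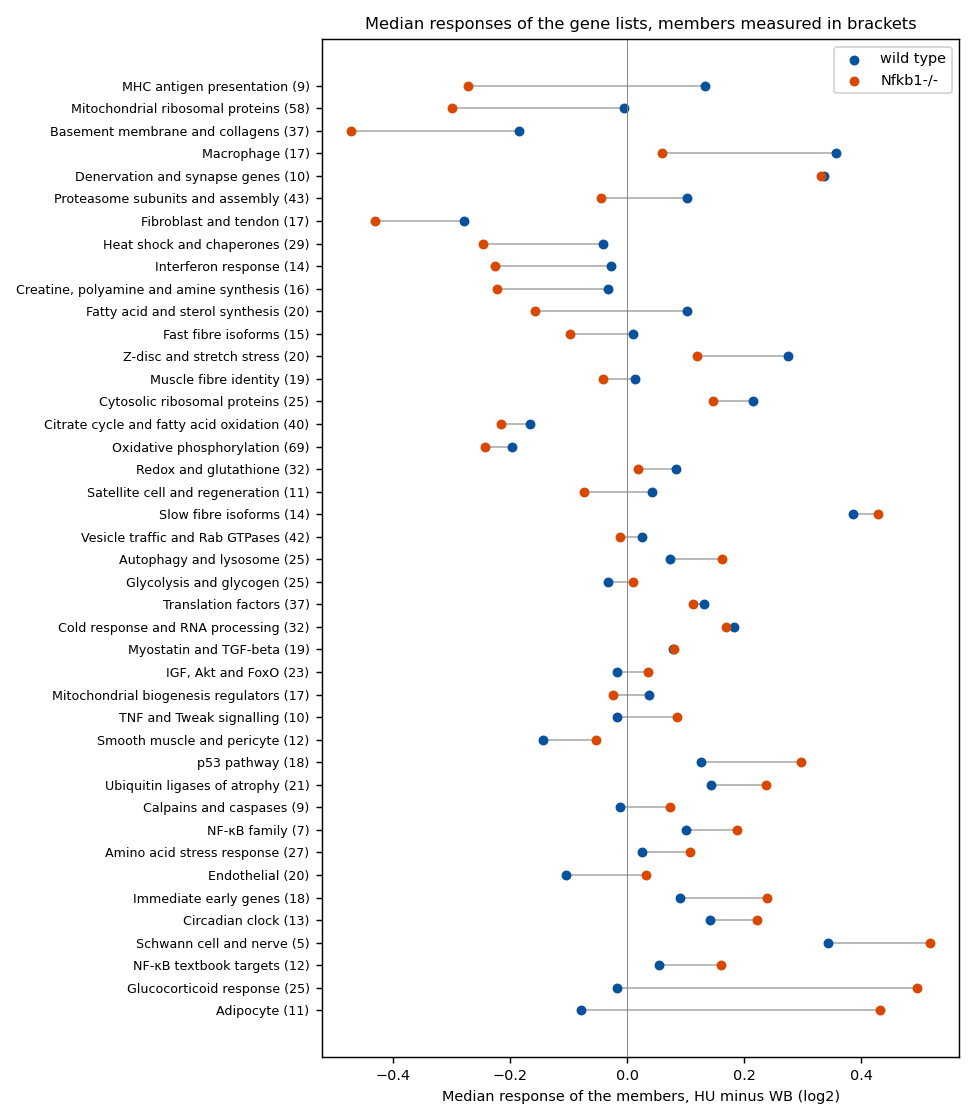
Median log2 response to unloading of the members of each gene list with at least 5 members measured, in wild type (blue) and Nfkb1-/- muscle (orange), in the order of the median difference between the genotypes. Numbers in brackets are the members measured. Mitochondrial ribosomal proteins lie at −0.01 in wild type mice and −0.30 without p50, and glucocorticoid response genes at −0.02 and 0.49.

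Most measured transcripts for proteins of the mitochondrial ribosome, which translates the subunits encoded by mitochondrial DNA, fell in Nfkb1-/- muscle. Of 58 measured, 35 (60.3%, against 14.4% of all genes) fell in Nfkb1-/- muscle and none rose. In wild type muscle 2 rose (3.45%, against 4.72%) and 1 fell (1.72%, against 4.07%). The difference was called for *Mrpl55* alone after adjustment. It had an unadjusted p under 0.05 for 32 (55.2%, against 11.7% of all genes), always with wild type the more positive, and was above 0 for 56. The median difference was 0.29 and stayed between 0.22 and 0.31 under the other scalings and without HU wild type replicate 1 and HU Nfkb1-/- replicate 4. In HU mice 26 were lower in Nfkb1-/- than in wild type muscle. The mean log2 level of the 58 genes, taken relative to WB wild type muscle, was −0.35 to −0.19 on the 4 HU Nfkb1-/- arrays and −0.14 to 0.07 on the 12 others. Leaving out 1 array gave 27 to 37 falls in Nfkb1-/- muscle, and the filter of the study, which tests fewer probe sets, gave 13. In Bcl3-/- muscle 2 rose and 2 fell, where 15.7% of all genes rose and 4.92% fell.

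*Mrpl36*, the bacterial-type L36 protein of the large subunit, read 53.4, 54.6, 62.2 and 52.98 in WB and 64.7, 50.5, 48.1 and 47.3 in HU wild type muscle, and 55.3, 60.7, 58.0 and 58.9 in WB and 37.4, 36.3, 35.2 and 32.2 in HU Nfkb1-/- muscle. The HU Nfkb1-/- arrays were below all others. The response was −0.09 (SE 0.09) in wild type mice and −0.72 (SE 0.09, adjusted p = 2.4e-04) without p50, and the difference of 0.63 (SE 0.13) had an adjusted p of 0.051. *Mrpl18* read 182 to 199 in WB and 186 to 226 in HU wild type muscle, and 203 to 216 in WB and 124 to 176 in HU Nfkb1-/- muscle. Its response was 0.06 (SE 0.09) in wild type mice and −0.52 (SE 0.09, adjusted p = 0.0016) without p50. The members did not all move alike. In wild type muscle *Mrps34* rose by 0.37 (SE 0.09, adjusted p = 0.017), and it was at 0.00 (SE 0.09) in Nfkb1-/- muscle, and *Mrps12* fell by 0.44 in both.

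The ETS core CCGGAAG, read on either strand, was in the promoters of 17 of the 50 mitochondrial ribosomal protein genes with a promoter entry (34%), against 22.2% of the tested genes. The κB consensus was in 1 of the 50 (2%). Stretches of *Mrpl18* (chr17:12916285-12916341, minus strand), *Mrpl17* (chr7:105811278-105811337, minus strand) and *Mrpl22* (chr11:58171571-58171657, plus strand), all of which fell in Nfkb1-/- muscle, are shown with that of *Cox20* (chr1:178319010-178319096, plus strand), a lost rise of a mitochondrial assembly factor. Capitals mark the core or, in *Cox20*, its reverse complement.
Mrpl18: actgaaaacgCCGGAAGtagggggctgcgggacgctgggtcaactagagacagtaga
Mrpl17: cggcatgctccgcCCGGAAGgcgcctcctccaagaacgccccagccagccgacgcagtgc
Mrpl22: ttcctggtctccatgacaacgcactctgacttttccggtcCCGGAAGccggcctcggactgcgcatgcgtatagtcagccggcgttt
Cox20: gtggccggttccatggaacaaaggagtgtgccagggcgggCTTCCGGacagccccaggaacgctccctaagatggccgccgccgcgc
*Mrpl17* fell by 0.35 (SE 0.11, adjusted p = 0.030) and *Mrpl22* by 0.31 (SE 0.08, adjusted p = 0.0089) in Nfkb1-/- muscle, with wild type values of 0.13 and 0.08. A match in a promoter is a description of its letters and not a site that was measured.

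Genes of the respiratory chain were among those that fell in both genotypes. Of 69 oxidative phosphorylation genes, 21 (30.4%, against 4.07% of all genes) fell in wild type mice and 42 (60.9%, against 14.4%) without p50. None rose in either. The median response was −0.20 in wild type mice and −0.24 without p50. The difference had an unadjusted p under 0.05 for 10 (14.5%, near the 11.7% of all genes) with wild type the more positive. It did for 2 (2.9%, against 6.4%) with Nfkb1-/- the more positive. The median difference of 0.05 turned to −0.01 under 1 of the other scalings. The 42 falls became 4 with the filter of the study, which keeps few of these genes. Of 40 genes of the citrate cycle and fatty acid oxidation, 8 (20%, against 4.07% of all genes) fell in wild type mice. Without p50, 18 (45%, against 14.4%) fell. The medians were −0.17 in wild type mice and −0.22 without p50. Of 25 cytosolic ribosomal protein genes, 11 (44%, against 4.72% of all genes) rose in wild type mice and 8 (32%, against 10.2%) in Nfkb1-/- mice. Their medians were 0.21 and 0.15. Slow fibre isoforms had medians of 0.39 and 0.43.

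Proteasome subunits and assembly factors, which form the protease that degrades ubiquitinated proteins, had 2 rises among 43 members in wild type muscle (4.65%, against 4.72% of all genes) and 6 falls in Nfkb1-/- muscle (14%, against 14.4%), shares near the background. The difference had an unadjusted p under 0.05 for 15 (34.9%, against 11.7%), always with wild type the more positive, and none was called after adjustment. The rises were those of *Psmg4*, an assembly chaperone, and of *Psmd13*, a lid subunit. *Psmd13* read 106, 106, 99.3 and 82.6 in WB and 161, 112, 141 and 146 in HU wild type muscle, and 90.6 to 98.8 in WB and 89.9 to 104 in HU Nfkb1-/- muscle. All HU wild type arrays were the highest of the 16. Its response was 0.50 (SE 0.11, adjusted p = 0.011) in wild type mice and 0.01 (SE 0.11, adjusted p = 0.97) without p50, and the difference was 0.49 (SE 0.15, adjusted p = 0.12). *Psmg2*, another assembly chaperone, fell by 0.46 (SE 0.10, adjusted p = 0.0044) in Nfkb1-/- muscle and was at −0.01 in wild type muscle. Without HU wild type replicate 1 and HU Nfkb1-/- replicate 4, the arrays that stood farthest from their groups, the 15 became 9, and leaving out 1 array gave 10 to 20.

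Genes of heat shock proteins and chaperones fell in 13 of 29 cases in Nfkb1-/- muscle (44.8%, against 14.4% of all genes). In wild type muscle 2 fell (6.9%, against 4.07%). The medians were −0.25 in Nfkb1-/- and −0.04 in wild type muscle. In Bcl3-/- muscle 8 of the 29 fell and none rose, with a median of −0.25, where 4.92% of all genes fell. The mean log2 level of the 29 was −0.33 to −0.04 on the HU Nfkb1-/- arrays. That range overlapped those of HU (−0.22 to 0.15) and WB wild type muscle (−0.13 to 0.11). *Hspb3*, a small heat shock protein of muscle, read 126 to 153 in WB and 128 to 172 in HU wild type muscle, and 146 to 172 in WB and 84.4 to 112 in HU Nfkb1-/- muscle. It was at 0.01 (SE 0.11) in wild type mice and at −0.73 (SE 0.11, adjusted p = 5.9e-04) without p50, and the difference was 0.74 (SE 0.16, adjusted p = 0.051). *Hspa1a*, the inducible Hsp70, read 13.7 to 22.3 in WB and 15.4 to 28.4 in HU wild type muscle, and 22.5 to 30.9 in WB and 11.5 to 18.6 in HU Nfkb1-/- muscle. Its levels were near the floor, and its Nfkb1-/- response was −0.77 (SE 0.19, adjusted p = 0.0085). *Bag3*, the co-chaperone of selective autophagy in muscle, fell in both, with the larger fall in wild type muscle (−0.54, SE 0.08, against −0.24, SE 0.08). It was the only 1 of the 29 with Nfkb1-/- the more positive at an unadjusted p under 0.05. Wild type was the more positive for 6 (20.7%, against 11.7% of all genes), and the difference was above 0 for 23. The 13 falls became 7 with the filter of the study, 8 with all 24 arrays in the fit on the same probe sets, and 7 on those above the floor on at least 4 of the 24 arrays. Leaving out 1 array gave 7 (without HU Nfkb1-/- replicate 2) to 15.

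Of 37 collagens and other basement membrane genes measured, 5 (13.5%, against 4.07% of all genes) fell in wild type mice. In Nfkb1-/- mice 19 (51.4%, against 14.4%) fell. The medians were −0.19 in wild type and −0.47 in Nfkb1-/- mice. The difference had an unadjusted p under 0.05 for 5 (13.5%) with wild type the more positive, near the 11.7% of all genes. It did for 1 (2.7%, against 6.4%) with Nfkb1-/- the more positive. In Bcl3-/- muscle 19 of the 37 fell and none rose, with a median of −0.55, where 4.92% of all genes fell. These falls were thus not seen in Nfkb1-/- muscle alone. *Col6a2*, a chain of the collagen VI microfibrils around fibres, read 348, 320, 360 and 262 in WB and 266, 255, 195 and 200 in HU wild type muscle, and 380, 348, 299 and 399 in WB and 148, 80.4, 123 and 210 in HU Nfkb1-/- muscle. The HU Nfkb1-/- arrays ranged widely and overlapped those of HU wild type mice. Its response was −0.50 (SE 0.21, adjusted p = 0.15) in wild type mice and −1.42 (SE 0.21, adjusted p = 5.8e-04) without p50, and the difference was 0.92 (SE 0.30, adjusted p = 0.14). *Col1a1* fell in both, by 1.2 (SE 0.31) and 1.75 (SE 0.31). The mean log2 level of the 37 was −0.45, −0.86, −0.42 and −0.01 on HU Nfkb1-/- replicates 1 to 4. In HU wild type muscle it was −0.31 to −0.12, so replicate 4 lay above all HU wild type arrays. Markers of fibroblasts and tendon also had more falls without p50. Of 17 measured, 5 (29.4%, against 4.07% of all genes) fell in wild type mice and 11 (64.7%, against 14.4%) without p50. Among them *Tnmd*, a tendon glycoprotein, fell by 0.75 (SE 0.16) and 1.27 (SE 0.16). In Bcl3-/- muscle 8 of the 17 fell and none rose, and the median was −0.43 in both knockouts. *Scx*, the defining factor of tendon cells, was below the floor. The mean log2 level of the 17 was −0.99 to −0.48 in HU Nfkb1-/- muscle, −0.43 to −0.23 in HU wild type muscle and −0.20 to 0.11 in the WB groups. The part of a changed share of tendon or connective tissue in the sample was not tested.

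Genes induced by glucocorticoids, the hormones that drive muscle protein breakdown under stress, had a median response of −0.02 in wild type mice and 0.49 without p50. Of 25 measured, none changed in wild type muscle. In Nfkb1-/- muscle 7 rose (28%, against 10.2% of all genes) and 1 fell (4%, against 14.4%). The difference had an unadjusted p under 0.05 for 6 (24%, against 6.4%) with Nfkb1-/- the more positive. It did for 1 (4%, against 11.7%) with wild type the more positive. *Pik3r1*, the p85α regulatory subunit of phosphoinositide 3-kinase, read 31.1, 27.1, 26.4 and 24.5 in WB and 33.7, 28.7, 43.2 and 44.0 in HU wild type muscle, and 23.2, 28.2, 27.5 and 22.2 in WB and 58.2, 65.3, 88.4 and 64.9 in HU Nfkb1-/- muscle. The HU Nfkb1-/- arrays were above all others. Its response was 0.44 (SE 0.15, adjusted p = 0.072) in wild type mice and 1.44 (SE 0.15, adjusted p = 5.7e-05) without p50, and the difference was −1.004 (SE 0.21, adjusted p = 0.051). *Klf9*, a Krüppel-like transcription factor, read 649 to 741 in WB and 645 to 764 in HU wild type muscle, and 600 to 709 in WB and 784 to 1602 in HU Nfkb1-/- muscle. It rose by 0.75 (SE 0.17, adjusted p = 0.0057) in Nfkb1-/- muscle and was at 0.00 in wild type muscle. The per-array mean of the list overlapped between the groups. It was 0.11, 0.56, 0.97 and 0.22 on HU Nfkb1-/- replicates 1 to 4 and −0.13 to 0.30 in HU wild type muscle. *Klf9* likewise read 1339 and 1602 on replicates 2 and 3, and 784 and 831 on replicates 1 and 4. Replicates 2 and 3 were also the high ones for the clock genes. Leaving out 1 array gave 3 rises (without WB Nfkb1-/- replicate 4) to 10, and array weights gave 11.

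Of 13 clock genes, 5 (38.5%, against 10.2% of all genes) rose in Nfkb1-/- and none in wild type muscle. The mean level of the 13 split the HU Nfkb1-/- group, at 0.48 and 0.52 on replicates 2 and 3 and −0.08 and −0.15 on replicates 1 and 4, against −0.12 to 0.20 on the 12 other arrays. *Bhlhe40*, a repressor in the clock's feedback loop, read 112 to 168 in WB and 229 to 414 in HU Nfkb1-/- muscle, against 146 to 223 in WB and 224 to 244 in HU wild type muscle. It rose by 1.08 (SE 0.17, adjusted p = 9.4e-04) in Nfkb1-/- muscle, with 0.41 (SE 0.17, adjusted p = 0.14) in wild type muscle. Of 11 adipocyte markers measured, 6 rose (54.5%, against 10.2% of all genes) and 2 fell (18.2%, near the 14.4% of all genes) in Nfkb1-/- muscle. In wild type muscle 2 fell (18.2%, against 4.07%). The medians were 0.43 in Nfkb1-/- and −0.08 in wild type muscle. *Plin4*, which coats lipid droplets, read 225 to 307 in WB and 175 to 318 in HU wild type muscle, and 234 to 318 in WB and 396 to 597 in HU Nfkb1-/- muscle. *Adipoq*, adiponectin, read 69.7 to 132 in WB and 85.8 to 96.1 in HU wild type muscle, and 65.8 to 139 in WB and 126 to 164 in HU Nfkb1-/- muscle. They rose by 0.79 (SE 0.18, adjusted p = 0.0054) and 0.75 (SE 0.20, adjusted p = 0.014) in Nfkb1-/- muscle. *Cidea*, *Cidec*, *Lep*, *Pparg* and *Ucp1* were below the floor in these samples. The mean level of the 11 was 0.10 to 0.42 in HU Nfkb1-/- muscle and −0.17 to 0.23 in the other groups, and its part in other rises was not tested.

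**Figure D5:**
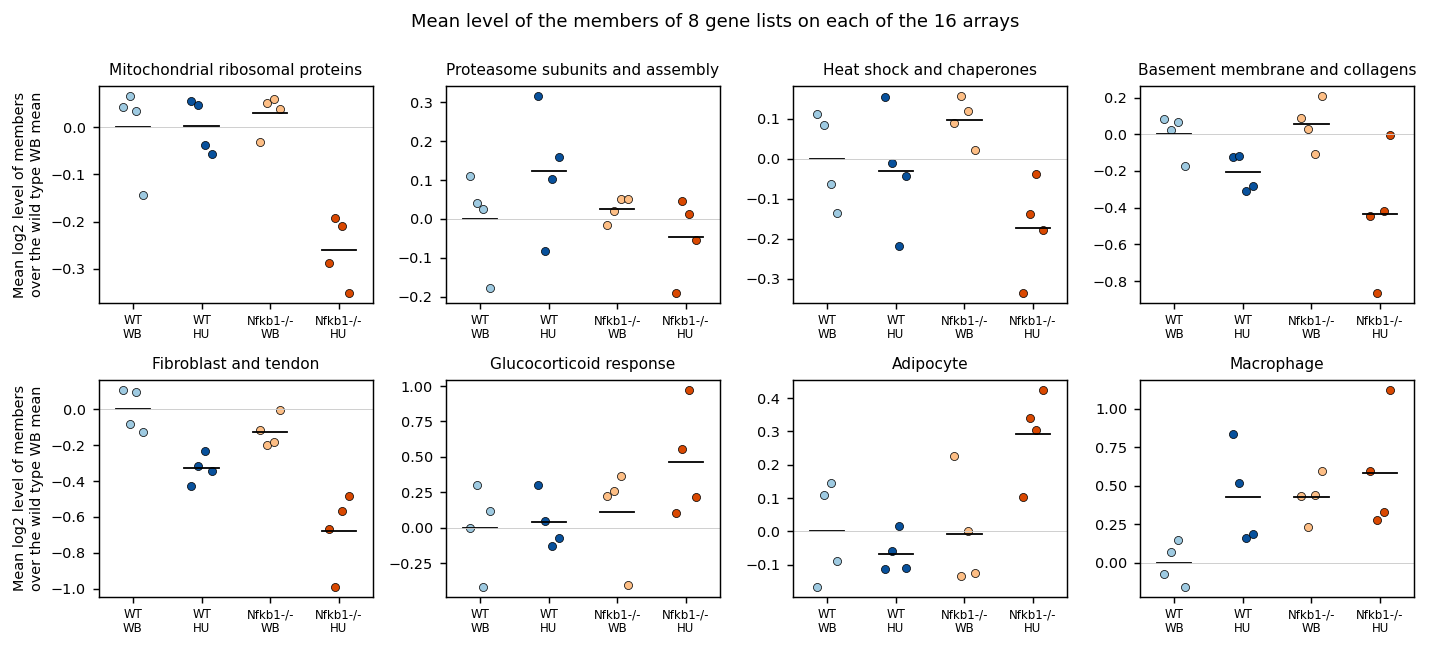
Mean log2 level of the measured members of 8 gene lists on each array, relative to the mean of WB wild type muscle, with 4 arrays (points) and their mean (line) for each group. The HU Nfkb1-/- arrays lie below all others for mitochondrial ribosomal proteins and for fibroblast and tendon markers, while the groups overlap for proteasome and glucocorticoid genes. For macrophage genes the WB wild type arrays lie below all others.

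For the NF-κB system, 7 of 20 family members were measured, *Ikbkg*, *Traf6*, *Tbk1*, *Nfkbib*, *Rela*, *Ikbkb* and *Nfkbia*, and no difference between the responses had an unadjusted p under 0.05. *Ikbkb*, the catalytic IκB kinase β, rose by 0.34 (SE 0.10, adjusted p = 0.024) in Nfkb1-/- muscle, with 0.16 (SE 0.10, adjusted p = 0.32) in wild type muscle. Of 12 textbook targets of NF-κB, none changed in wild type muscle. In Nfkb1-/- muscle 4 rose (33.3%, against 10.2% of all genes) and 2 fell (16.7%, near the 14.4% of all genes). *Ier3*, an early response gene that acts on apoptosis and on NF-κB itself, read 30.4, 25.4, 23.7 and 27.9 in WB and 21.6, 26.5, 25.3 and 32.7 in HU wild type muscle, and 27.8, 26.6, 31.7 and 30.1 in WB and 52.8, 117, 81.4 and 51.9 in HU Nfkb1-/- muscle. All 4 HU Nfkb1-/- arrays were above the other 12. The response was −0.03 (SE 0.20, adjusted p = 0.95) in wild type mice and 1.30 (SE 0.20, adjusted p = 6.9e-04) without p50, and the difference of −1.33 (SE 0.29) had an adjusted p of 0.051. *Irf1*, an interferon regulatory factor, read 21.7 to 32.2 on all wild type arrays and 24.4 to 26.03 in WB and 29.9 to 37.8 in HU Nfkb1-/- muscle. It rose by 0.35 (SE 0.11, adjusted p = 0.024) in Nfkb1-/- muscle, and the difference was −0.46 (SE 0.15, adjusted p = 0.14).

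Of the 11 textbook targets with a promoter entry, 6 (54.5%) held the κB consensus, among them *Ier3* (chr17:35821581-35821670, plus strand) and *Irf1* (chr11:53769961-53770013, plus strand). Capitals mark the match. For comparison *Cited2* (chr10:17723035-17723120, plus strand), a gained rise with no κB match, is shown with its E-box CACGTG in capitals, a sequence bound by clock and Myc family factors that was in 13% of the promoters of tested genes.
Ier3: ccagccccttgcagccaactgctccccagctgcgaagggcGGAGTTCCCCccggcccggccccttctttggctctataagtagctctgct
Irf1: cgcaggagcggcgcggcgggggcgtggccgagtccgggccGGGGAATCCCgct
Cited2: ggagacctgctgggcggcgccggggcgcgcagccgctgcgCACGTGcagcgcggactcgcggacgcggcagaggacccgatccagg
The E-box was in 2 of the 21 promoters of genes with the difference called (*Cited2* and *Nme1*) and in 3 of those of 12 clock genes.

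Genes of creatine, polyamine and pterin synthesis formed a mixed list that holds *Pts*. Of 16 measured, 6 fell (37.5%, against 14.4% of all genes) and 1 rose (6.25%, against 10.2%) in Nfkb1-/- muscle. In wild type muscle 1 fell and 1 rose (6.25% each, against 4.07% and 4.72%). The difference had an unadjusted p under 0.05 for 5 (31.2%, against 11.7%), each with wild type the more positive. These were *Gamt*, *Pts*, *Azin1*, *Qdpr* and *Oaz1*, of which *Pts* was already among the called genes. The list was chosen with earlier results known and its share counts *Pts*, so the share is not independent evidence. *Qdpr*, which recycles the cofactor that *Pts* helps to make, read 347 to 390 in WB and 361 to 419 in HU wild type muscle, and 346 to 403 in WB and 226 to 309 in HU Nfkb1-/- muscle. Its response was 0.06 (SE 0.09, adjusted p = 0.74) in wild type mice and −0.47 (SE 0.09, adjusted p = 0.0025) without p50, and the difference was 0.52 (SE 0.13, adjusted p = 0.073). *Gamt*, the last enzyme of creatine synthesis, read 30.4 to 49.7 in WB and 25.5 to 40.2 in HU wild type muscle, and 39.3 to 72.7 in WB and 10.4 to 20.8 in HU Nfkb1-/- muscle. Its difference was 1.49 (SE 0.32, adjusted p = 0.051). *Azin1* and *Oaz1* are the antizyme inhibitor and the antizyme that set the level of ornithine decarboxylase.

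Of 25 probe sets that the study selected as p50 or Bcl-3 targets, 23 were tested. As they were chosen on these samples, their direction is not independent evidence. In wild type muscle 9 rose and in Nfkb1-/- muscle 7, where 5.16% and 9.9% of all probe sets tested rose. The median responses were 0.50 and 0.24, and no difference was called. The difference had an unadjusted p under 0.05 for 8, always with wild type the more positive. That held for 12.7% of all probe sets tested. *Fbxo32*, the muscle ubiquitin ligase atrogin-1, went the other way. It read 105, 106, 139 and 121 in WB and 198, 109, 404 and 404 in HU wild type muscle, and 108, 73.2, 273 and 114 in WB and 341, 1083, 921 and 501 in HU Nfkb1-/- muscle. Its response was 1.06 (SE 0.45, adjusted p = 0.14) in wild type mice and 2.36 (SE 0.45, adjusted p = 0.0020) in Nfkb1-/- mice, and the difference was −1.30 (SE 0.63, adjusted p = 0.28). The study lists *Fbxo32* as a p50 target. By qPCR it reports no rise, or a smaller rise, in Nfkb1-/- muscle for all genes measured but *Fbxo9* and *Foxo3*. The array values of *Fbxo32* given here have the opposite direction. Outside the selected set, *Mustn1*, a nuclear protein of muscle and bone, read 113 to 159 in WB and 370 to 619 in HU wild type muscle, and 114 to 130 in WB and 231 to 370 in HU Nfkb1-/- muscle, so that it rose in both and the HU ranges met at 370.

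Of the markers of immune cells, *S100a8* and *S100a9* were the 2 of 16 neutrophil genes tested, and 11 others were below the floor. *S100a9*, a calcium-binding protein abundant in neutrophils, read 3.31 to 3.52 in WB and 5.17 to 9.13 in HU wild type muscle, and 4.58 to 11.7 in WB and 21.1 to 58.6 in HU Nfkb1-/- muscle. Only the HU Nfkb1-/- arrays were above the floor. *Lgals3*, the macrophage lectin galectin-3, rose in both genotypes, by 2.02 (SE 0.40) and 1.704 (SE 0.40), with a difference of 0.32 (interval −0.87 to 1.51). It does not stand for its list of 17 measured macrophage markers, of which each genotype had 1 called rise and no called fall. The median response of the list was 0.36 with p50 present and 0.06 without it. The starting levels differed, since the mean log2 level of the 17 was −0.15 to 0.15 in WB wild type and 0.23 to 0.60 in WB Nfkb1-/- muscle. In HU mice it was 0.16 to 0.84 in wild type and 0.28 to 1.12 in Nfkb1-/- muscle. The smaller response without p50 thus began from a higher level, and the HU levels overlapped. Without p50, 5 of the 17 markers had a response below 0. The part of infiltrating cells in the other responses was not tested.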

How the data were processed

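RNA of gastrocnemius and plantaris muscles was measured on Affymetrix 430A 2.0 arrays. The authors read the scanner files (GCOS) into GenePattern 3.2.1, applied RMA with quantile normalization, and deposited the linear intensities as 1 table. Here log2 intensities of the 16 wild type and Nfkb1-/- arrays were fitted in R 4.3.3 by lmFit, contrasts.fit and eBayes of limma 3.58.1, with 1 mean per group and 12 residual and 4.18 prior degrees of freedom. A probe set was tested when above 20, the floor of the study, on at least 4 arrays, and called at a Benjamini-Hochberg adjusted p under 0.05 over 9722 probe sets, two-sided. Bcl3-/- values come from a fit of all 24 arrays. All columns of the table were used.

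Of 22690 probe sets, 64 are controls, and 20380 are listed with 1 gene, 691 with several and 1555 with none. In the lists a gene is represented by its brightest probe set, by the mean of the 16 arrays, and 884 of 1259 listed genes were measured. The named genes are those of the called and kept probe sets, those the study selected, the NF-κB family and up to 3 list members with the smallest unadjusted p for the difference. Other named members were chosen after their values were seen. The members and lists were chosen with earlier results of these data known. List counts have no set test. Probe sets ending in _s_at or _x_at hold probes that match more than 1 transcript or gene.

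Alternatives were other filters, all 24 arrays, other variances and weights, other scalings, the pseudocount, the replicate block, thresholds, the methods' t-test and each array left out. Leaving out the arrays farthest from their groups, centring on the tested probe sets, and setting intensities under 20 to 20 were added after seeing the data. The fit was tested on simulated data. Promoters are RefSeq entries of GRCm38.p6, and motifs were searched on both strands from 250 bases before to 50 after the start. The number of arrays limits the precision.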

Additional observations from a re-analysis of the deposited data

Results flagged for a closer look

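The response to unloading differed between the genotypes, by the test of the difference itself, for 27 probe sets. The wild type response minus the Nfkb1-/- response, on the log2 scale, was 4.74 for *Gdpd3*, 3.28 for *Klk1b16*, 1.23 for *Itgb6*, 1.19 for *Thyn1*, 1.07 for *Pts*, 1.04 for *Rab40b*, 0.91 for *Mrpl55*, 0.91 for *Prss23* and 0.69 for *Gsta4*. It was 0.68 for *Alg3*, 0.67 for *Glrx*, 0.64 for *Cox20*, 0.59 for *C1d*, 0.58 for *Srp14* and 0.51 for *Nme1*. In the other direction it was −0.55 for *Ctage5*, −0.65 for *Slc7a6*, −0.66 for *Rab6a*, −0.79 for *Il15ra*, −0.84 and −0.86 for the probe sets of *Pgap2*, −1.19 for *Cited2*, −1.45 for *Nfia* and −1.51 for *Tial1*. Probe sets without a listed gene had 1.45, 1.43 and 1.09. The first pair of these fell by 1.08 and 1.12 in Nfkb1-/- muscle, and their difference was called under every alternative tried.

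A single array stood apart from its group in 10 of 208 groups of 4 arrays over 52 probe sets, and chance alone flags about 1 group in 20. WB wild type replicate 4 was high for *Gdpd3* (92.4) and low for *Mrpl18* (182) and *S100a9* (3.31). WB wild type replicate 2 was low for *Klk1b16* (2.91), and WB wild type replicate 3 was high for 1 of the probe sets without a listed gene (52.6). HU wild type replicate 2 was high for *Glrx* (79.9), and HU Nfkb1-/- replicate 3 was low for *Glrx* (39.6). HU Nfkb1-/- replicate 4 was high for 1 probe set of *Pgap2* (20.4), and WB Nfkb1-/- replicate 2 for the other (31.7). WB Nfkb1-/- replicate 4 was high for *Psmg2* (114).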

How the results depend on the processing

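With 4 arrays a group, the number of differences called was sensitive to single arrays and to the variance model, and no named difference reversed. The 27 differences became 3 to 55 with 1 array left out (fewest without WB Nfkb1-/- replicate 4, most without HU Nfkb1-/- replicate 4), 104 with all 24 arrays on the same probe sets, 41 with a trend and robust variance, 230 with array weights, 83 after another quantile normalization, 46 when centred on array medians, 55 when centred on the tested probe sets, 17 without the arrays farthest from their groups (HU wild type replicate 1 and HU Nfkb1-/- replicate 4), 63 with intensities under 20 set to 20 (lost 14, reversed 8, gained 37, and 23 of the 27 remained) and 255 at an adjusted p under 0.1. *Tial1* and 2 probe sets without a listed gene stayed past the threshold in all 29 alternatives.

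In that order of settings, where the count moved, lost responses (9) were 0 to 13, 26, 68 (weights), 18 (quantile), 14 (tested probe sets), 3 (farthest arrays) and 56. Reversed ones (2) were 1 to 8, 8, 4 (trend), 26, 9, 5, 9, 4 and 33, with 6 on log2 of the intensity plus 16 and 0 at 1.4-fold or more. Gained ones (15) were 2 to 37, 68, 24, 127, 52, 29, 29, 9 and 158. Kept ones (4) were 2 to 8, 2 with the filter of the study, 17 with weights and 7 after quantile normalization. The wild type response, with 868 calls, had 416 (without HU wild type replicate 3) to 1246 (without HU wild type replicate 2), 478 with the filter of the study, 2503 with weights, 1567 at an adjusted p under 0.1 and 330 at 1.4-fold or more. The Nfkb1-/- response, with 2343 calls, had 1500 (without WB Nfkb1-/- replicate 4) to 2519, 1378 and, at 1.4-fold, 906. The methods' t-test, which tests responses only, gave 54 wild type and 1431 Nfkb1-/- calls with q-values, and 0 and 625 when adjusted by Benjamini-Hochberg, against 796 and 1431 of 3695 probe sets at an unadjusted p under 0.05.

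The filter of the study tests fewer probe sets, and under it the mitochondrial ribosomal protein counts of 35 and 32 were 13 and 7, proteasome 7 (9 without the farthest arrays), oxidative phosphorylation 4 and heat shock 7 (8 and 7 with all 24 arrays). Glucocorticoid rises were 11 with weights. With 1 array left out the list counts were 27 to 37 for both mitochondrial ribosomal counts, 10 to 20 for proteasome, 31 to 44 for oxidative phosphorylation, 7 to 15 for heat shock, 15 to 24 for collagens, 3 to 10 for glucocorticoid and 4 to 7 for adipocyte genes.

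The residuals of same-numbered arrays of different groups had 24 correlations of −0.20 to 0.27, of which 4 were over 0.1. Differently numbered arrays were not compared, so whether replicate numbers pair the samples was not tested. With the replicate number as a block 26 differences, 738 wild type and 2216 Nfkb1-/- responses were called, 5 lost and 4 reversed, and 18 of the 27 differences remained past the threshold. The cause of these shifts was not tested.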
